A study of Mus musculus with 10 samples.

Results

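The genes described here encode interleukin-22 (IL-22), the chains that bind it and the proteins that carry its signal to STAT3. They are the 8 genes Il22, Il22ra1, Il10rb, Il22ra2, Jak1, Tyk2, Stat3 and Socs3, of 24062 gene symbols counted in each library. They were chosen by name, with earlier results of these data known. RNA sequencing was performed on the jejunum of 5-day-old mice, with 5 WT and 5 KSR23 libraries, to compare gene expression in an organ of nutrient uptake between pups with and without the IL-23 transgene. WT mice were wild-type C57BL/6 mice without treatment. KSR23 mice, also C57BL/6, carried a knock-in of both subunits of IL-23 (p19, encoded by Il23a, and p40, encoded by Il12b) in the ROSA26 locus, released by a cre recombinase under the keratin 14 (K14) promoter. That promoter is active in keratinocytes of the skin and in other stratified epithelia, so the cytokine was not directed to cells of the jejunum that was sequenced. The study describes the libraries of a group as biological replicates and the controls as littermates, and the labels give no sex, litter or animal for each library.

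IL-22 is secreted mainly by innate lymphoid cells and T cells, and IL-23 is one of the cytokines that induce it. It acts on epithelial cells, which carry a receptor made of the chains IL-22RA1 and IL-10RB. The kinases JAK1 and TYK2 sit on these chains and phosphorylate STAT3, which enters the nucleus and switches on defence and repair genes. SOCS3 is induced by STAT3 and restrains the pathway, whereas IL-22RA2 is a secreted protein that binds IL-22 and keeps it from its receptor.

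Libraries held 25.5 to 32.0 M counts in WT and 31.2 to 60.9 M in KSR23. A floor of 3 counts stood for 0.0864 to 0.113 CPM in WT and 0.0427 to 0.119 CPM in KSR23. Levels are given as counts per 1e6 counts of a library (CPM) after scaling by the trimmed mean of M-values (TMM). Of 17632 genes tested with the edgeR likelihood ratio test, 18.5% differed between the groups at an adjusted p under 0.05, with 9.73% higher and 8.76% lower in KSR23. Most genes had intermediate values in replicates 4 and 5 of both groups. These libraries held the highest or lowest value of their group at 8.4% to 18.2% of 9056 genes, against 46.0% to 75.5% for replicates 1 to 3, and values of the 8 genes from replicates 1 to 3 alone are therefore given beside the main ones. In that subset 579 genes were called (3.36%), against 3261 in all 10 libraries. Whether replicates 4 and 5 came from separate animals or hold RNA mixed from other libraries of their group was not tested and is not given by the labels. If they are not independent, every n of 5 overstates the number of animals, and the SDs and p-values over 5 libraries a group are too small. Of the calls in all 10 libraries 52.6% were higher in KSR23, a share that fell to 39.0% with upper-quartile factors, which moved the median log2 fold change of all genes from 0.03 to -0.13. Il12b, the p40 subunit, had 0 to 5 counts in WT and 9 to 40 in KSR23 (adjusted p = 0.00364), and Il23a had 1 to 14 and 8 to 34 (adjusted p = 0.27). Summed epithelial markers were abundant in each library (2740 to 9350 CPM).

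All 8 genes passed the filter of 5 counts in at least 1 library. Il22 and Il22ra2, with at most 1 and 0 counts in WT, passed it through KSR23 libraries alone. They could only be called higher. Of all tested genes 18.5% were called and 9.73% were called higher. Il22, Il22ra1, Il22ra2, Socs3 and Tyk2 were called higher in KSR23, none was called lower, and Il10rb, Stat3 and Jak1 did not pass the test. The calls on Il22, Il22ra1 and Socs3 also passed the quasi-likelihood F test (which called 15.4% of all genes), those on Il22ra2 and Tyk2 did not, and in replicates 1 to 3 alone only Il22 and Socs3 were called by the likelihood ratio test. The groups did not overlap in CPM at Il22, Il22ra1 and Socs3, which is the case at 14.4% of all tested genes.

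**Figure D1:**
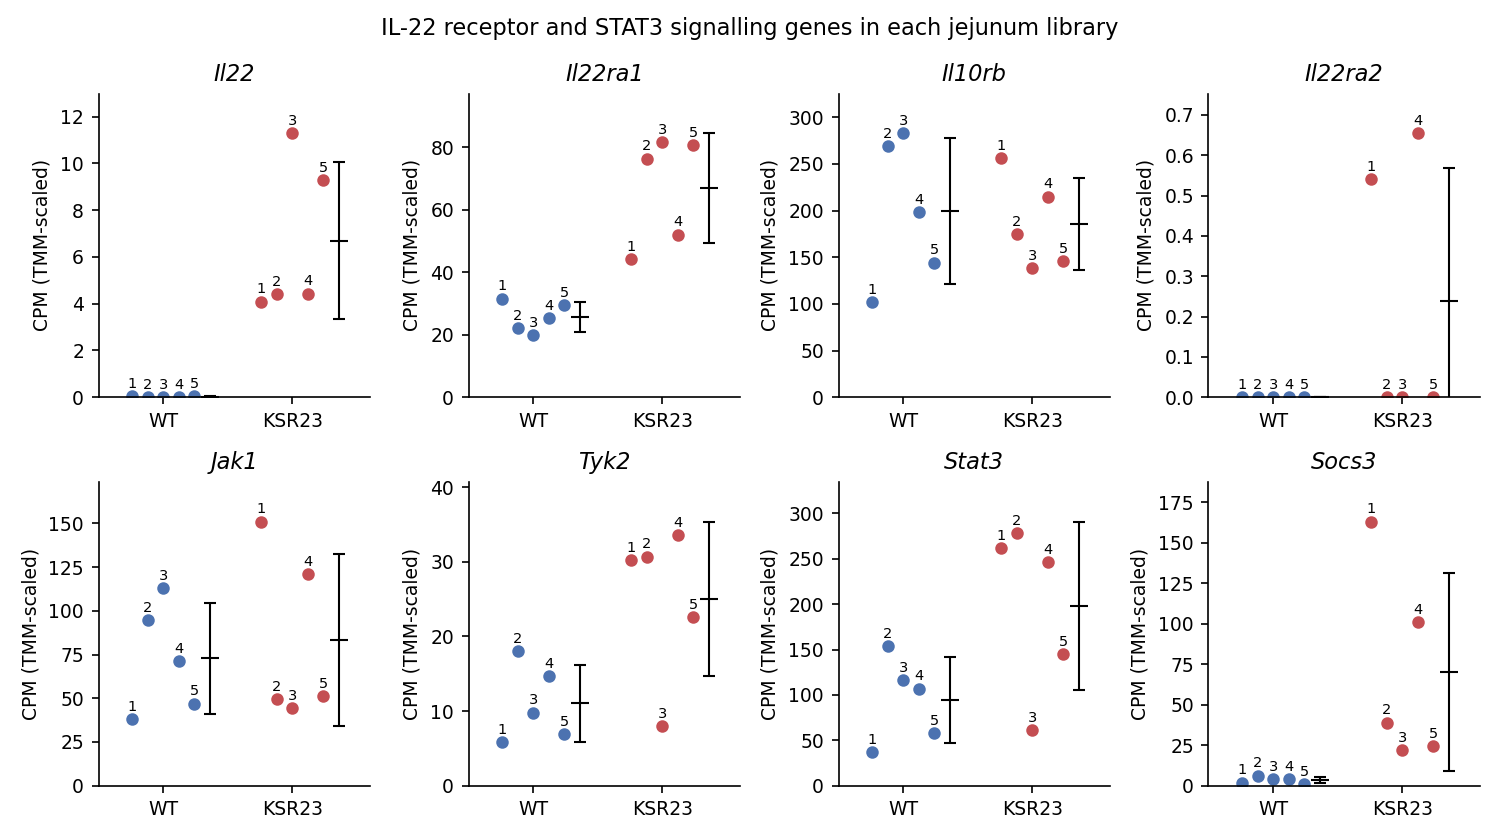
TMM-scaled CPM of the 8 genes (vertical axes, each from 0) in the 5 WT and 5 KSR23 libraries. Points carry the replicate number, and the black bars show the mean and SD. Il22, Il22ra1 and Socs3 do not overlap between the groups, and Il22ra2 is above 0 in KSR23 replicates 1 and 4 alone.

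Il22, the ligand (chromosome 10, 118204942 to 118210047, plus strand, mm10), was all but absent from WT jejunum and present in every KSR23 library. It had 1, 0, 0, 0 and 1 counts in WT replicates 1 to 5. In KSR23 it had 287, 137, 284, 250 and 329 counts, or 4.08, 4.42, 11.3, 4.43 and 9.29 CPM. Replicates 3 and 5 were the highest of the KSR23 libraries. The KSR23 mean of 6.7 ± 3.35 CPM (SD, n = 5) was at least 65.9-fold higher than a floor of 3 counts in each WT library, and single libraries lay at least 40.2-fold to 111-fold above it (adjusted p = 5.08e-29, and 1.23e-05 by the quasi-likelihood test). The call stood in replicates 1 to 3 alone (adjusted p = 3.29e-12). Of the 75-base stretches of Il22, 29.9% also occur in Iltifb, a near-identical copy, and reads that fit both entered neither count. Iltifb itself had 0 counts in WT and 0, 1, 2, 0 and 3 in KSR23, so the count of Il22 leaves out reads from stretches shared with the copy.

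Il22ra1 encodes the chain that confines the response largely to epithelial cells (chromosome 4, 135728172 to 135752140, plus strand). It had 31.5, 22, 19.9, 25.2 and 29.4 CPM in WT and 44.2, 76.4, 81.6, 52.1 and 80.8 CPM in KSR23. No KSR23 value fell within the WT range. The mean rose from 25.6 ± 4.84 to 67.0 ± 17.6 CPM (SD, n = 5 each), which is 1.39 on the log2 scale (SE 0.29; adjusted p = 6.84e-05, and 0.00256 by the quasi-likelihood test). With replicates 1 to 3 only it was 1.5, and the call was lost (adjusted p = 0.122). The summed markers of epithelium were 2740 to 5610 CPM in WT and 5530 to 9350 CPM in KSR23. KSR23 replicates 1 and 3 (5540 and 5530 CPM) lay just under the highest WT library. In bulk tissue, more cells of a type and more RNA per cell cannot be told apart. Relative to the summed epithelial counts of the same library, Il22ra1 was 0.62 higher in KSR23 on the log2 scale, a difference that did not pass a two-sided exact permutation test (p = 0.143, adjusted p = 0.286 over 6 genes).

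Il10rb, the chain that IL-22 shares with IL-10 and other cytokines of the family (chromosome 16, 91406164 to 91425834, plus strand), was not called. Its levels were 102, 269, 283, 198 and 144 CPM in WT and 256, 175, 138, 215 and 146 CPM in KSR23, and the ranges overlapped widely. The log2 fold change was -0.1 with a 95% interval of -0.75 to 0.55 (adjusted p = 0.88). Leaving out WT replicate 2 or WT replicate 3 turned its sign, to 0.08 and 0.06, and it was -0.17 in replicates 1 to 3 alone (adjusted p = 0.948). Relative to summed epithelial counts it was -0.78 (two-sided exact permutation p = 0.0238, adjusted p = 0.0714 over 6 genes). The annotated gene Gm21970 covers 14.9% of its exonic bases on the same strand.

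The ratio of the counts of both receptor chains was compared within libraries, which removes the scaling between them. There were 0.309, 0.0819, 0.0704, 0.127 and 0.203 counts of Il22ra1 per count of Il10rb in WT. In KSR23 there were 0.173, 0.437, 0.593, 0.243 and 0.555. KSR23 replicates 2, 3 and 5 were above every WT library, and replicates 1 and 4 were not. The log2 ratio was 1.41 higher in KSR23 (SE 0.53, two-sided exact permutation p = 0.0397), which missed the threshold after adjustment over the 4 ratios tested (adjusted p = 0.0794). In replicates 1 to 3 alone the difference was 1.55.

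Il22ra2, the secreted binding protein (chromosome 10, 19621998 to 19634681, plus strand), rested on a pair of libraries. It had 0 counts in each WT library, which allows up to 0.0864 to 0.113 CPM per library by counting error. In KSR23 it had 38, 0, 0, 37 and 0 counts, or 0.54 and 0.655 CPM in replicates 1 and 4. The likelihood ratio test called it (adjusted p = 0.0246), whereas the quasi-likelihood test (adjusted p = 0.101) and DESeq2 (adjusted p = 0.0673) did not. Without KSR23 replicate 1 the adjusted p was 0.067, and without KSR23 replicate 4 it was 0.0871. Leaving out WT replicate 3, 4 or 5 also ended the call (adjusted p from 0.0535 to 0.0567). Without both, no count was left, and replicates 1 to 3 alone gave an adjusted p of 0.258.

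KSR23 replicates 1 and 4 stood apart from the other KSR23 libraries in more than Il22ra2. They alone held at least 10 counts, with 0 in the other 3, at 26 genes. The other pairs of libraries in either group held 0 to 2 such genes. Replicates 1 and 4 were also the deepest libraries (60.9 and 51.5 M counts, against 25.5 to 40.9 M in the others). The part of depth in these counts was not tested. Replicate 4 may hold RNA mixed from other libraries of its group, so the pair need not be separate animals. KSR23 replicates 1 and 4 both carried transcripts of 4 Y-linked genes (9035 and 4330 summed counts). KSR23 replicates 2, 3 and 5 held 1 to 9. Every WT library carried them, with 492 in WT replicate 3 and 4361 to 6347 in the others. Sex is not given by the labels and may be unbalanced between the groups. Its part in the differences between KSR23 and WT was not tested. Summed markers of macrophages and dendritic cells, a known source of IL-22RA2, were 484 and 483 CPM in KSR23 replicates 1 and 4. They were 521 to 642 CPM in the other KSR23 libraries. The part of these differences in the count of Il22ra2 was not tested. The log2 ratio of Il22ra1 to Il22ra2 counts was 10.1 to 11 in WT. It was 6.34 and 6.29 in KSR23 replicates 1 and 4 and 12.0 to 12.5 in the other KSR23 libraries. Wherever Il22ra2 had 0 counts, in 8 of the 10 libraries, the value is only the Il22ra1 count over the added 0.5 and moves with that number, so the direction between the groups cannot be read from it.

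Jak1 encodes the kinase that sits on IL-22RA1 (chromosome 4, 101152367 to 101265282, minus strand). Its levels were 38.0, 94.7, 113, 71.3 and 46.9 CPM in WT and 151, 49.5, 44.4, 121 and 51.1 CPM in KSR23. KSR23 replicates 1 and 4 were above all WT libraries and the other KSR23 libraries were inside the WT range. The log2 fold change was 0.19 (95% interval -0.66 to 1.05, adjusted p = 0.818), and it was -0.55 without KSR23 replicates 1 and 4 (adjusted p = 0.337) and 0.02 in replicates 1 to 3 alone (adjusted p = 0.996).

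Tyk2, the kinase on IL-10RB (chromosome 9, 21104068 to 21131243, minus strand), was called higher by a narrow margin. It had 5.85, 18.0, 9.76, 14.7 and 6.91 CPM in WT and 30.2, 30.7, 7.95, 33.6 and 22.6 CPM in KSR23. Of the KSR23 libraries 4 were above every WT library, and replicate 3 was among the low WT values. The log2 fold change was 1.18 (SE 0.44, adjusted p = 0.0441, and 0.0738 by the quasi-likelihood test). It kept its sign in each subset of libraries tried, from 0.93 to 1.48, but leaving out WT replicate 1, 3 or 5 or KSR23 replicate 1, 2, 4 or 5 ended the call (adjusted p from 0.0692 to 0.136). In replicates 1 to 3 alone it was 1.07 (adjusted p = 0.566). Upper-quartile factors (adjusted p = 0.0537) and library totals alone (0.0943) also ended the call, and relative to summed epithelial counts the difference was 0.4 (exact permutation, adjusted p = 0.419). An antisense gene, 1700084C06Rik, covers 8.07% of its exonic bases, and reads of the pair cannot be told apart without strand.

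Stat3, the transcription factor of the pathway (chromosome 11, 100885098 to 100939540, minus strand), had 37.1, 154, 116, 107 and 57.9 CPM in WT. In KSR23 it had 262, 278, 61.4, 246 and 145 CPM. Replicates 1, 2 and 4 of KSR23 were above all WT libraries, replicate 5 was below WT replicate 2, and replicate 3 was below 3 of the WT libraries. The means were 94.3 ± 46.8 and 199 ± 92.5 CPM (SD, n = 5 each), and the log2 fold change of 1.07 (SE 0.46, 95% interval 0.18 to 1.97) did not pass the test after adjustment (adjusted p = 0.0887). The call depended on single libraries. Without KSR23 replicate 3 the log2 fold change was 1.3 (adjusted p = 0.00876), and without WT replicate 2 it was 1.37 (adjusted p = 0.037). It was 1.01 in replicates 1 to 3 alone (adjusted p = 0.617), and 0.31 relative to summed epithelial counts (exact permutation, adjusted p = 0.476).

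Socs3, the feedback inhibitor (chromosome 11, 117966079 to 117970047, minus strand), had the largest fitted change of the members with counts in every library. It had 1.76, 6.08, 4.0, 4.03 and 1.09 CPM in WT. In KSR23 it had 163, 38.9, 22.1, 101 and 24.5 CPM. Even the lowest KSR23 library exceeded the highest WT library, but KSR23 replicates 1 and 4 were far above the other 3. The mean rose from 3.39 ± 2.0 to 69.9 ± 61.1 CPM (SD, n = 5 each), which is 4.36 on the log2 scale (SE 0.6; adjusted p = 1.54e-08, and 0.0014 by the quasi-likelihood test). It was 4.27 in replicates 1 to 3 alone (adjusted p = 0.000368, and 0.0854 by the quasi-likelihood test) and 3.11 without KSR23 replicates 1 and 4 (adjusted p = 2.24e-07). Relative to summed epithelial counts, Socs3 was 3.41 higher on the log2 scale (two-sided exact permutation p = 0.00794, adjusted p = 0.0476 over 6 genes).

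To determine if Socs3 rose beyond Stat3, their counts were compared within libraries. There were 0.048, 0.0396, 0.0348, 0.0378 and 0.0191 counts of Socs3 per count of Stat3 in WT. In KSR23 the ratio was 0.622, 0.14, 0.361, 0.41 and 0.168, above WT in 5 of 5 libraries. The log2 ratio was 3.09 higher (SE 0.46, two-sided exact permutation p = 0.00794, the smallest that 5 against 5 allows; adjusted p = 0.0317 over the 4 ratios). In replicates 1 to 3 alone the difference was 2.96, and an exact permutation test of 3 against 3 libraries cannot go below p = 0.1.

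**Figure D2:**
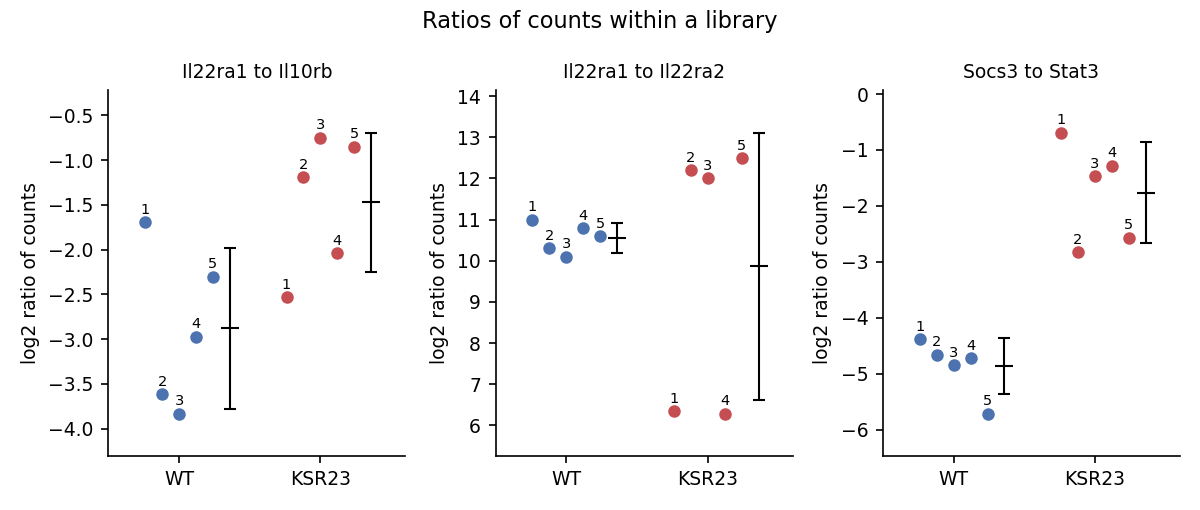
Log2 ratio of counts (vertical axes) for 3 pairs of genes in each WT and KSR23 library. Points carry the replicate number, and the black bars show the mean and SD. The Socs3 to Stat3 ratio is higher in each KSR23 library than in each WT library, and the other ratios overlap between the groups.

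The sequences before the start sites of Socs3 and Il22ra1 are shown because both genes rose without overlap and differ in a motif of STAT factors. The 250 bases upstream of the RefSeq start sites (GRCm38.p6, 5′ to 3′ on the strand of the gene) lie at chr11:117969367-117969616 for Socs3 and chr4:135727909-135728158 for Il22ra1. Capitals mark a match to TTCNNNGAA, a palindromic core that STAT dimers recognise, which reads the same on both strands.
Socs3: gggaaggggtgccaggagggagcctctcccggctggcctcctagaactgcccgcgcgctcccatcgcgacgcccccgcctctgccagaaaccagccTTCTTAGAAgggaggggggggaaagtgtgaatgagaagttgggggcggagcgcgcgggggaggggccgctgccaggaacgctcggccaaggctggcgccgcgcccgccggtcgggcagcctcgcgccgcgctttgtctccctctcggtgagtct
Il22ra1: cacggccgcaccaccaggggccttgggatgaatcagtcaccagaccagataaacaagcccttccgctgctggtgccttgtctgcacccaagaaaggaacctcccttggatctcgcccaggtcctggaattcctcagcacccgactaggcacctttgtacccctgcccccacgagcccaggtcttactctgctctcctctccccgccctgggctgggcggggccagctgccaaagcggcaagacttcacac
The match in Socs3, TTCTTAGAA, begins 154 bases before the RefSeq start. In the GENCODE annotation the protein-coding transcript starts further downstream, at 117969186, and the match lies in an intron of a non-coding transcript of the gene. RefSeq entries of 300 bases, from 250 before to 50 after the start, were found for Il22, Il22ra1, Jak1, Tyk2, Stat3 and Socs3, and of these 6 only Socs3 held the motif. It was present in 8.3% of all 32851 entries, in 8.76% of 12918 tested genes with an entry and in 11.2% of the 1261 genes called higher. A match describes letters in this window and shows no binding.

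**Figure D3:**
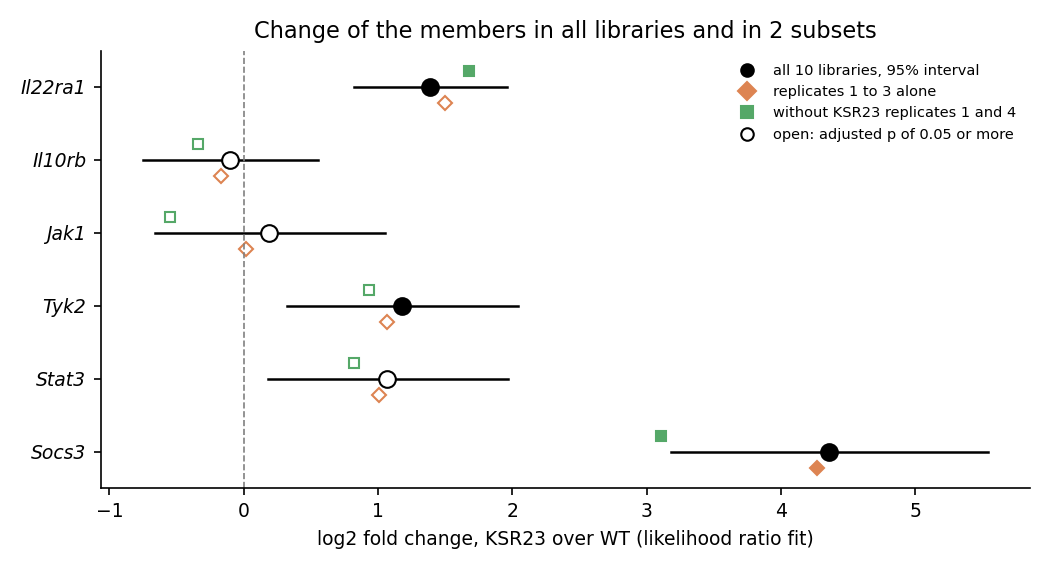
Log2 fold change of KSR23 over WT (horizontal axis) for 6 genes. Circles with 95% intervals show all 10 libraries, diamonds replicates 1 to 3 alone and squares the fit without KSR23 replicates 1 and 4, and open symbols have an adjusted p of 0.05 or more. Socs3 stays above 3 in each fit, and Jak1 changes sign without KSR23 replicates 1 and 4.

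The order of the members by level was compared per length, as CPM per kb of exons. In WT, Il10rb was the most abundant member (52.3 ± 20.5 CPM per kb, SD, n = 5) and lay above the next gene in each library. Jak1, Il22ra1 and Stat3 followed at 10.1 ± 4.38, 9.96 ± 1.88 and 9.9 ± 4.92 CPM per kb and did not differ beyond their spread. Tyk2 and Socs3 came next, at 1.61 ± 0.754 and 1.17 ± 0.691 CPM per kb with overlapping ranges, although Tyk2 was above Socs3 in each of the 5 libraries, and Il22 and Il22ra2 were last.

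In KSR23, Il10rb was again first (48.8 ± 13 CPM per kb, SD, n = 5), without overlap with the next gene. Il22ra1 (26.1 ± 6.84), Socs3 (24.2 ± 21.1) and Stat3 (20.8 ± 9.71 CPM per kb) followed with overlapping ranges, and Stat3 was above Jak1 in each of the 5 libraries. The mean of Socs3 was carried by replicates 1 and 4 (56.4 and 34.9 CPM per kb), and in replicates 2 and 5 it lay below Stat3 (13.5 and 8.47 against 29.2 and 15.3 CPM per kb). Il22, at 6.04 ± 3.02 CPM per kb, lay between Jak1 (11.5 ± 6.79) and Tyk2 (3.64 ± 1.51) and overlapped with both.

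Within a group, 5 of the members shared their lowest libraries. WT replicates 1 and 5 were the lowest pair for Il10rb, Jak1, Tyk2, Stat3 and Socs3, and KSR23 replicate 3 was the lowest library for the same 5 of 5 genes. Il22ra1 ran the other way, with its highest WT values in replicates 1 and 5, its highest KSR23 value in replicate 3 and its lowest KSR23 values in replicates 1 and 4. Il22 was likewise highest in KSR23 replicates 3 and 5. The orders are a description of 5 libraries a group, in which replicates 4 and 5 lie between the others. Summed epithelial markers were lowest in WT replicates 1 and 5 (2740 and 3240 CPM) and, in KSR23, in replicates 3 and 1 (5530 and 5540 CPM), and their part in these orders was not tested.

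Further genes of IL-22 and JAK-STAT signalling were examined in 6 lists of 69 genes, chosen with earlier results of these data known. Of the 69, 63 were tested. Of these, 14 were called higher and 3 lower, which is 27.0% against 18.5% of all tested genes. By the quasi-likelihood test 11 were higher and 2 lower, where 15.4% of all genes were called. In replicates 1 to 3 alone 2 were higher and 0 lower, a share near the 3.36% of all genes.

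Known STAT3 target genes moved upward where they were called. Of 18 tested, 7 were higher (38.9%, against 9.73% of all tested genes) and 0 lower (8.76%), with a median log2 fold change of 0.57 against 0.03 over all tested genes. As the list was chosen with earlier results of these data known, these shares are a description and not a test. The 9 epithelial markers had a median log2 fold change of 0.68, and the part of epithelial content was not tested. Muc1, a membrane mucin, rose from 0.513 ± 0.136 to 2.7 ± 0.529 CPM (log2 fold change 2.39, adjusted p = 1.27e-09). Fos, an immediate early transcription factor, rose from 16.2 ± 5.94 to 127 ± 84.4 CPM (log2 fold change 2.97, adjusted p = 3.91e-08), and these were the 2 genes of the lists called in replicates 1 to 3 alone. Icam1, an adhesion molecule for leukocytes, rose from 18.0 ± 2.21 to 49.1 ± 3.44 CPM (adjusted p = 6.18e-07), and the groups did not overlap. Lrg1, a secreted glycoprotein of the acute phase, rose from 1.47 ± 1.14 to 13.2 ± 10.6 CPM (adjusted p = 0.00339), but its counts in KSR23 ran from 10 to 2068 and the call ended without KSR23 replicates 1 and 4 (log2 fold change 2.33, adjusted p = 0.0531). Among the 11 that did not pass, log2 fold changes lay on either side of 0, as for Pim1 (0.57, adjusted p = 0.191) and Cebpb (-1.03, adjusted p = 0.107).

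The inhibitors other than Socs3 were not called. Of 14 tested genes of the SOCS, PIAS and phosphatase families, 0 passed the likelihood ratio test and 0 the quasi-likelihood test, against 18.5% and 15.4% of all tested genes, with a median log2 fold change of 0.07. Socs1, the closest relative of Socs3 in function, had counts of 1, 1, 25, 1 and 13 in the WT libraries. Its KSR23 counts were 109, 6, 4, 35 and 8 (log2 fold change 0.89, SE 0.99, adjusted p = 0.593). Cish, an inhibitor induced by STAT5, did not pass (-0.63 on the log2 scale, SE 0.29, adjusted p = 0.125), although its CPM did not overlap between the groups. The differences of Socs3 from these genes were not tested.

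Cytokines and receptors that also act through STAT3 were called in both directions, 4 higher and 3 lower of 18 tested, where 9.73% and 8.76% of all tested genes were. By the quasi-likelihood test 2 were higher and 2 lower. Il6st, the gp130 chain shared by the IL-6 family, rose from 19.5 ± 8.32 to 47.3 ± 19.1 CPM (log2 fold change 1.28, adjusted p = 0.0118). Osmr, the oncostatin M receptor, rose from 4.88 ± 1.75 to 12.1 ± 4.5 CPM (log2 fold change 1.3, adjusted p = 0.00926), and its ligand Osm from 0.18 ± 0.17 to 0.659 ± 0.396 CPM (adjusted p = 0.0416, and 0.097 by the quasi-likelihood test). Il21r, the receptor of IL-21, was called higher as well (log2 fold change 2.08, adjusted p = 0.0123, and 0.0609 by the quasi-likelihood test). The genes called lower were Cntfr, a receptor for ciliary neurotrophic factor (log2 fold change -2.22, adjusted p = 0.000622), Ctf1, which encodes cardiotrophin (-2.51, adjusted p = 0.00441, and 0.072 by the quasi-likelihood test), and Il11ra1, the IL-11 receptor (-1.01, adjusted p = 0.0154). Ctf1 had 5 to 12 counts in WT and 0 to 4 in KSR23. The calls on Osm and Il11ra1 depended on single libraries. That on Osm was lost without WT replicate 1, 2, 4 or 5 or KSR23 replicate 2, 4 or 5 (adjusted p from 0.0505 to 0.131). That on Il11ra1 was lost without WT replicate 2, 3 or 4 or KSR23 replicate 4 or 5 (0.0511 to 0.071), and that on Il6st without WT replicate 5 (0.0547). Without KSR23 replicates 1 and 4, neither Il6st (adjusted p = 0.0735) nor Il21r (0.0781) was called. Il6, the founding ligand, had 0 to 9 counts in WT and 3 to 69 in KSR23 and did not pass (adjusted p = 0.181).

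Among the other JAK kinases and STAT factors, Stat6, which serves IL-4 and IL-13, rose from 104 ± 26.2 to 214 ± 60.1 CPM (log2 fold change 1.04, adjusted p = 0.00543), a call lost with upper-quartile factors (0.0723). Of 4 further receptor chains of the IL-10 family 1 was called, near the 18.5% of all genes tested. This was Il20rb (1.85 ± 0.369 to 3.74 ± 1.12 CPM, adjusted p = 0.0181), but not without WT replicate 5 (0.0745) or KSR23 replicate 5 (0.0668), nor with upper-quartile factors (0.115). The other ligands of the family were scarcely detected in either group. Il19, Il20, Il24, Ifnl2 and Ifnl3 had at most 1 count in any library and were not tested, and Il10 had 0 to 11 counts in WT and 0 to 6 in KSR23 (adjusted p = 0.444).

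**Figure D4:**
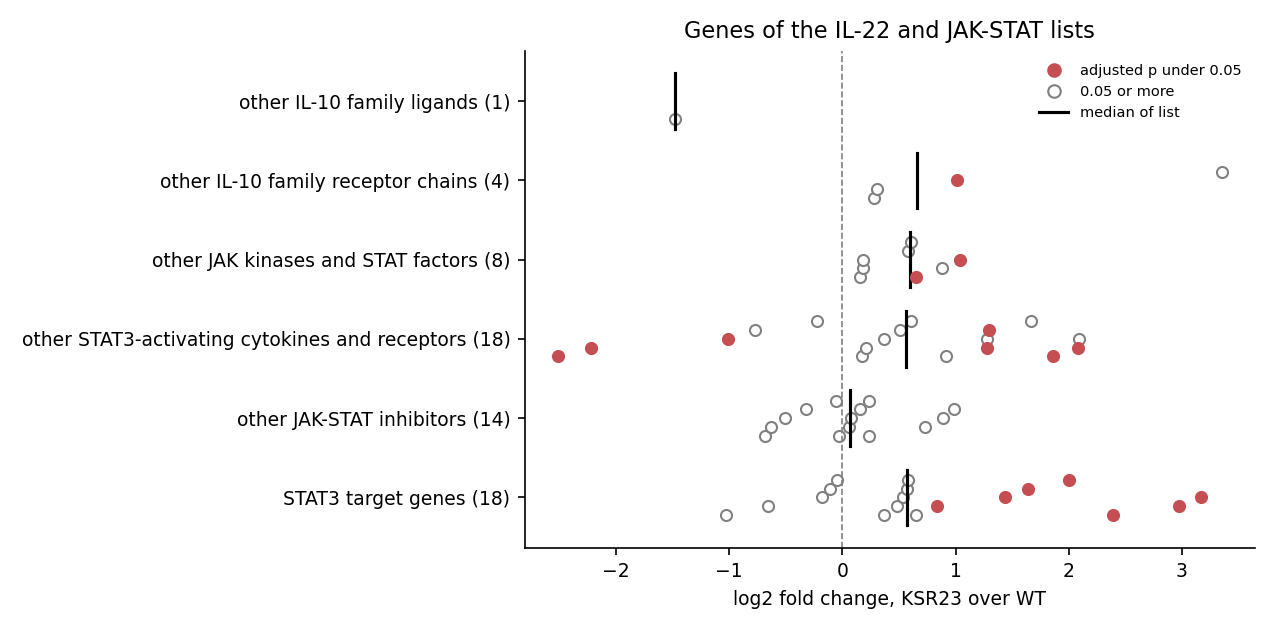
Log2 fold change of KSR23 over WT (horizontal axis) for the 63 tested genes of 6 lists, with the number tested in brackets. Filled points passed an adjusted p of 0.05, open points did not, and the vertical bar is the median of the list. None of the 14 inhibitors is filled, and the 7 filled STAT3 target genes lie above 0.

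The genes whose pattern over the 10 libraries was most like that of a called member were found by the root mean square difference of log2 CPM relative to the WT mean, among 12889 genes. Nearest to Il22ra1 were Ehf, an epithelial transcription factor (difference 0.09), Pgap1, which remodels lipid anchors of proteins (0.1), and Slc28a2, a nucleoside transporter (0.11). Nearest to Il22 were Ptk6, an epithelial kinase (0.49), F9, coagulation factor IX (0.49), and Fut2, a fucosyltransferase (0.56), although these values depend on the prior count because Il22 was near 0 in WT. Tyk2 had Phrf1, Atg9a and Slc35b4 as its neighbours (0.14 to 0.17). Socs3 had no close neighbour, with Rhbg and Arhgef10l at 0.81 and 0.86, and nor did Il22ra2, with Hif1a, Vipr1 and Hpse at 0.7 to 0.78.

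Markers of the cell types that make or receive IL-22 were compared as summed CPM. Markers of T cells and innate lymphoid cells were 135 to 189 CPM in WT and 93.2 to 188 CPM in KSR23, with 1 of 10 called higher (Ccr6) and 1 lower (Cd3g). Between the groups this sum was not higher in KSR23, but within KSR23 it was highest in replicates 3 and 5 (188 and 138 CPM, against 93.2 to 117 CPM), the libraries with the most Il22. The part of these cells in the level of Il22 was not tested. General leukocyte markers overlapped (121 to 160 and 115 to 155 CPM, 0 of 5 called). Summed markers of macrophages and dendritic cells were lower in each KSR23 library (483 to 642 against 699 to 851 CPM), with 2 of 7 genes called lower and 1, Itgam, called higher. The neutrophil sum was lower as well (6.49 to 14.5 against 19.1 to 29.5 CPM), but of 5 genes only Retnlg was called and the median log2 fold change of the list was 0.37. Of 9 epithelial markers 2 were called higher (Cdh1 and Krt20) and 0 lower.

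Markers of other cell types were examined in the same way. Those of exocrine pancreas summed to 101 to 231 CPM in WT and 6.22 to 16.3 CPM in KSR23, and each of the 9 tested genes was called lower. Smooth muscle markers were 1300 to 2660 CPM in WT and 1250 to 1650 CPM in KSR23, with 1 of 5 called lower. Fibroblast markers were 1250 to 1890 and 1230 to 1760 CPM (1 of 6 lower), endothelial markers 98.3 to 130 and 96.4 to 109 CPM (2 of 5 lower), and B cell markers 5.9 to 8.14 and 4.93 to 11.4 CPM (1 of 4 higher). Their part in the levels of the 8 genes was not tested.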

How the data were processed

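Jejunum RNA was primed with oligo-dT from picogram input, amplified by PCR without molecular identifiers and read from one end over 75 bases. Floors therefore cover counting error only, whereas the 95% intervals of fold changes, from the model's SE, and the p-values include the spread between libraries, which may be technical. The authors aligned reads to mm10 with TopHat2 2.1.0 and counted them per gene with HTSeq 0.6.1p1, and the deposited values were whole, unnormalized counts. Strand use in counting is not given in the sources used here. The counter's own 5 totals were left out.

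Counts of all 10 libraries were fitted in edgeR 4.0.16 (R 4.3.3) with TMM factors and compared by the likelihood ratio test, which the study used. A gene needed 5 counts in 1 library or more, and Benjamini-Hochberg adjustment covered all 17632 genes. The steps were tested on simulated data with independent libraries and less spread between them than in these data. That test checks the code and not the calls made here. The alternatives comprised DESeq2 1.42.0, quasi-likelihood testing, other scaling and filters, a replicate block and subsets of libraries. The fit without KSR23 replicates 1 and 4 and the epithelial scaling were added after seeing the data. Ratios of counts plus 0.5 were compared by two-sided exact permutation over 252 splits. Positions and exon lengths came from GENCODE M21 (mm10). The members and lists were chosen with earlier results of these data known. Named were the members, up to 4 called genes per list and direction, and the 3 nearest genes of each called member; Pim1, Cebpb, Socs1, Cish, Il6 and Il10 were named after their values were seen. One of the 4 ratios and 2 genes that the rule names are not reported here.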

Additional observations from a re-analysis of the deposited data

Results flagged for a closer look

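In the search for single libraries that stand apart, 22 groups of 5 values were examined, and chance alone marks about 1 in 20 such groups. The log2 CPM of Tyk2 in KSR23 replicate 3 was 3.0 against 4.5 in the nearest KSR23 library, and this gap took 0.723 of the range of the group, above the critical value of 0.71. The same library was the lowest of its group for Il10rb, Jak1, Stat3 and Socs3, as it was at 33.2% of 9056 genes.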

How the results depend on the processing

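The number of genes called fell from 3261 to 579 in replicates 1 to 3 alone and to 140 there by the quasi-likelihood test, and stayed within 1.5 times of 3261 in the other settings. Of the 8 members 5 were called. This fell to 3 by the quasi-likelihood test, 3 with 5 or more counts in every library, where Il22 and Il22ra2 left the test, 3 without KSR23 replicates 1 and 4, 2 in replicates 1 to 3 alone and 1 there by the quasi-likelihood test. Leaving out 1 library gave 3 to 6 members. Of the 63 list genes 17 were called, against 2 in replicates 1 to 3 alone, 0 there by the quasi-likelihood test and 9 with the replicate block. In the same order, 18.5%, 3.36%, 0.812% and 12.5% of all tested genes were called. With the block the share of list genes was near that of all genes.

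The Socs3 to Stat3 ratio differed by 2.96 in replicates 1 to 3 alone and by 2.82 to 3.36 without 1 library, where an exact permutation of 5 against 4 libraries cannot reach an adjusted p under 0.05 for a lone ratio (smallest 0.0635). Without 1 library the Il22ra1 to Il22ra2 difference ran from -1.34 to 0.21 and, with all libraries, from -1.61 with a pseudocount of 0.1 to -0.29 with 1 (-0.68 with 0.5, exact permutation p = 0.54), since 8 libraries had 0 counts of Il22ra2. The same subsets gave log2 fold changes from -0.27 to 0.08 for Il10rb and from -0.07 to 0.41 for Jak1. Jak1 was at -0.55 without KSR23 replicates 1 and 4 and at -0.63 when scaled to epithelial markers, and neither passed a test.

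Deviations of same-numbered libraries from the group means correlated at -0.69 to 0.41 over 12889 genes, and were positive for replicates 2, 4 and 5. Replicates 1 to 3 hold most of the highest and lowest values, so these correlations cannot show whether same-numbered libraries were paired. The block on the replicate number took the calls from 3261 to 2202 and ended that of Tyk2 (1.16, adjusted p = 0.089), and 4 members kept theirs. Among the list genes described, Stat6, Il20rb, Il21r, Il11ra1 and Lrg1 lost theirs under the block (adjusted p from 0.0609 to 0.113).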
